A study of Homo sapiens with 12 samples.

Results

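The 10 genes described here mark or drive the mesenchymal state of neuroblastoma (NB) cells. They were taken by name from the 58735 gene names of the deposited count tables, and all 10 were found. PRRX1, SNAI2, FOSL1, FOSL2, RUNX1 and RUNX2 encode transcription factors, YAP1 encodes a transcriptional co-activator, NOTCH2 encodes a receptor, VIM encodes an intermediate filament protein and FN1 encodes a protein of the extracellular matrix.

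RNA-seq was read from 2 human NB cell lines, KELLY and SK-N-AS, in 12 samples. KELLY carries an amplified MYCN gene and SK-N-AS does not, and no engineered change is named for either line. Each line was given Erastin for 24 h, a compound that blocks cystine uptake through the antiporter xCT and induces ferroptosis, or was kept with the vehicle DMSO, with 3 samples in each of the 4 groups. KELLY received 1 µM and SK-N-AS received 2 µM, so that line and dose cannot be told apart where the Erastin responses are compared. GEO's labels call KELLY neuronal and SK-N-AS a neuroblast, each is a single established line, and the samples are described as biological triplicates. The comparison of the control samples asks how far the lines differ in these genes, and the comparison of Erastin with DMSO asks whether the drug shifts them within a line.

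NB cells are found in at least a pair of states. Adrenergic cells keep the programme of the sympathetic neuroblast, with GATA3 and the enzymes that make noradrenaline, whereas mesenchymal cells resemble neural crest derived mesenchyme, move and adhere more and carry vimentin and fibronectin. PRRX1 is able to push adrenergic cells toward the mesenchymal state, AP-1 proteins of the FOS-like family and RUNX proteins occupy its enhancers, Notch signalling can switch the state, and YAP1, held back by the Hippo kinases, switches on genes of adhesion and growth together with the TEAD factors.

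Depth was similar across the samples. The 6 KELLY libraries held 24169796 to 28251514 counts and the 6 SK-N-AS libraries 25696149 to 29835670. Levels are given as CPM, the counts per 1000000 counts of a library scaled by the TMM method, and 1 count was worth 0.0340 to 0.0410 CPM. MYCN followed the labels of the lines, with 116651 to 159802 counts in the 6 KELLY libraries and 1 to 11 counts in the 6 SK-N-AS libraries. Of 17 adrenergic genes none was at 0 in all libraries of a group. With DMSO their levels summed to between 6000 and 10065 CPM in the KELLY libraries and between 1862 and 2246 CPM in the SK-N-AS libraries. Replicates were unlike in their GC trend, taken as Spearman's correlation over 11823 genes (not independent replicates) of GC content with the log2 level relative to the line's mean. The trend lay between -0.84 and 0.87 among KELLY libraries and between -0.75 and 0.77 among SK-N-AS libraries.

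The promoter sequences show which of these factors' own motifs lie at the starts of the genes. RefSeq windows on GRCh38.p14, from 250 bases before to 50 after an annotated start, were found for 8 of the 10 genes, with 9 windows because RUNX2 had 2. They were searched on both strands for TGANTCA, the AP-1 motif bound by FOS-like and JUN proteins, GGAATG, the TEAD motif through which YAP1 acts, TGTGGT, the RUNX motif, and CAGGTG, the E-box that SNAI2 binds. RUNX1 and RUNX2 are shown because no KELLY library had a read of them, FOSL2 and YAP1 because they are the other regulators with a match. Each is written from 5′ to 3′ in the direction of the gene, with the matched letters in capitals. RUNX1 lies at chr21:34888650-34888949 on the minus strand, the upstream RUNX2 window at chr6:45328080-45328379, FOSL2 at chr2:28392608-28392907 and YAP1 at chr11:102110197-102110496, the last 3 on the plus strand.
RUNX1: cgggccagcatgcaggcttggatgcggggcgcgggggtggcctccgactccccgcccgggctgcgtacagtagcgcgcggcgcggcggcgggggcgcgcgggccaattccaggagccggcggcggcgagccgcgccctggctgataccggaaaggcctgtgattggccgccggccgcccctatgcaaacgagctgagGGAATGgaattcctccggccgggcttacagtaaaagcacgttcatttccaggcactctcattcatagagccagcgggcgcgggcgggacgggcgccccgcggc
RUNX2: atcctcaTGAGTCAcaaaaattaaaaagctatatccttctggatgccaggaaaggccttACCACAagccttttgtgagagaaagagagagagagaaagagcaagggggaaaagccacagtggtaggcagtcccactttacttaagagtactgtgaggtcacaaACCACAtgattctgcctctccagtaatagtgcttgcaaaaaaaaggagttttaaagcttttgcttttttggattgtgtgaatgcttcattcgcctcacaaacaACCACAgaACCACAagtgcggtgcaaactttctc
FOSL2: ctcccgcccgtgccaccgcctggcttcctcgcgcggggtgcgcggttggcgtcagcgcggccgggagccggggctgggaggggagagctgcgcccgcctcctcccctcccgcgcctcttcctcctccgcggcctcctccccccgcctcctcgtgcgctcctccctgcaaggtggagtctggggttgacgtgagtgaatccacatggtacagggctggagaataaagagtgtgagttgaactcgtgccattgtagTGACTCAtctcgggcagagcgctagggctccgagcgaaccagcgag
YAP1: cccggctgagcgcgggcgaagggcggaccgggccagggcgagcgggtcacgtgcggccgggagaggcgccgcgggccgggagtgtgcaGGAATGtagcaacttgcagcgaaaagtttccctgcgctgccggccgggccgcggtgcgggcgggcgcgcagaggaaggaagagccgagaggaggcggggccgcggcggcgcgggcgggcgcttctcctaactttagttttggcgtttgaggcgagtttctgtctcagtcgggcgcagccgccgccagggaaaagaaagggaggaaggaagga
The upstream RUNX2 window held 1 AP-1 match and 4 matches to the RUNX motif, all 4 on the opposite strand and therefore read as ACCACA. FOSL2 held an AP-1 match, and RUNX1 and YAP1 each held a TEAD match. Beyond these, the other RUNX2 window, at chr6:45422025-45422324, held a TEAD match and VIM held a RUNX match. The windows of PRRX1, NOTCH2 and FN1 held none of the 4 motifs. The windows of RUNX1 and NOTCH2 lie inside their genes, whose annotated 5′ ends are at chr21:36004667 and chr1:120100779. No window at those ends was searched. AP-1 letters were present in 2 of the 9 windows against 7.71% of 35116 windows genome-wide, TEAD letters in 3 against 14.0%, RUNX letters in 2 against 13.1% and the E-box in 0 against 20.6%. Such a match is a run of letters and was not tested for binding.

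In the control samples, 9 of the 10 genes were higher in SK-N-AS than in KELLY and NOTCH2 was not (Benjamini-Hochberg adjusted p under 0.05 by edgeR's quasi-likelihood test on the 6 DMSO samples). The lines differ broadly, and that has to be read beside the count. Of 17089 genes tested, 61.3% passed the same threshold, with 30.3% of all tested higher in SK-N-AS and 30.9% lower. All 10 genes had enough counts to be tested, FOSL1, RUNX1 and RUNX2 through their SK-N-AS libraries alone, so that the filter set the direction of these 3. The 10 genes were also chosen with earlier results of these data known. The count of 9 is therefore a description and not an independent test against the share of all genes. The median log2 difference (SK-N-AS minus KELLY) of the 10 genes was 5.14, and that of all genes tested was -0.02. The 3 SK-N-AS libraries lay above the 3 KELLY libraries for each of the 9 genes, as was the case for 33.5% of all genes tested.

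**Figure D1:**
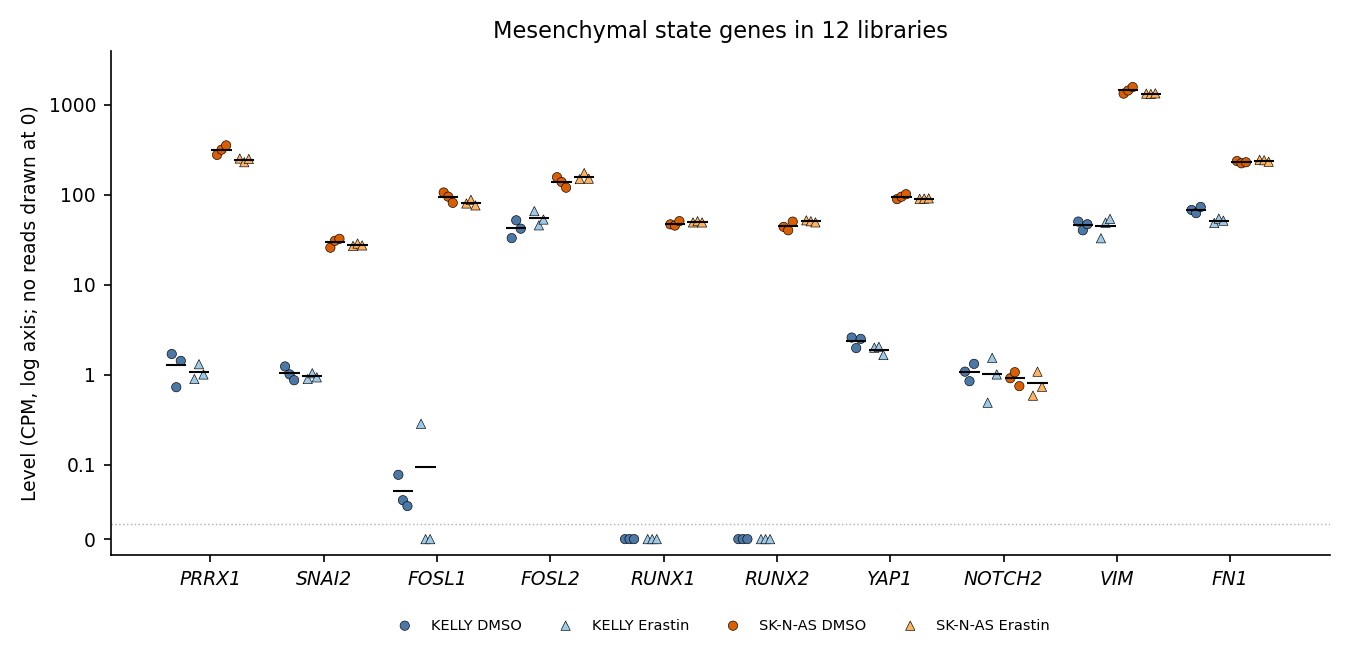
Level of each of the 10 genes in every library, in CPM on a log axis, with libraries without a read drawn at 0 under the dotted line; circles are DMSO, triangles are Erastin, blue is KELLY, orange is SK-N-AS and the black bars are group means. The SK-N-AS libraries lie above the KELLY libraries for every gene but NOTCH2, and the 4 groups of NOTCH2 overlap near 1 CPM.

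Among the regulators of epithelial to mesenchymal change, PRRX1 was measured at 279, 318 and 355 CPM in the SK-N-AS controls and at 1.71, 0.731 and 1.43 CPM in the KELLY controls. PRRX1 is a homeobox factor of the limb and head mesenchyme. The KELLY values rest on 18 to 44 counts per library, and the log2 difference was 7.91 (standard error 0.30, adjusted p = 1.66e-07). SNAI2, a zinc finger repressor of epithelial cadherin, stood at 25.9, 31.0 and 32.5 CPM in SK-N-AS and at 1.24, 1.02 and 0.874 CPM in KELLY. Its log2 difference of 4.82 (standard error 0.22, adjusted p = 3.49e-07) had a 95% interval of 4.32 to 5.31 and corresponds to 28.2-fold.

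The FOS-like pair split in its background level. FOSL1, which forms AP-1 dimers with JUN proteins and is high in invasive cells, had 2895, 2409 and 2174 counts in the SK-N-AS controls and 2, 1 and 1 counts in the KELLY controls. The KELLY libraries together held 4 counts against 7478 in SK-N-AS. The ratio of these sums was 1869, with an exact 95% counting interval of 730 to 6863 that covers counting error only. FOSL2, the other FOS-like member, was expressed in both lines, at 157, 139 and 120 CPM in SK-N-AS and at 33.1, 52.3 and 42.2 CPM in KELLY. All SK-N-AS values were again above the KELLY values, and the log2 difference was 1.70 (standard error 0.19, adjusted p = 8.30e-05), the smallest among the 9 higher genes.

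RUNX1 and RUNX2, the DNA-binding partners of CBFB in blood and in bone, had no read in any of the 6 KELLY libraries, with DMSO or with Erastin. RUNX1 had 1281, 1150 and 1362 counts in the SK-N-AS controls and RUNX2 had 1202, 1019 and 1345. Against a limit of 3 counts per library, which a count of 0 allows, RUNX1 was at least 419-fold and RUNX2 at least 394-fold higher in SK-N-AS. RUNX1 spans chr21:34787801-36004667 on the minus strand and RUNX2 chr6:45328157-45664349 on the plus strand (GENCODE release 44, GRCh38), and both are counted over all their exons, so that the counts do not say which promoter was in use.

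Of the signalling genes, YAP1 was measured at 89.9, 95.6 and 102 CPM in the SK-N-AS controls and at 2.60, 1.99 and 2.52 CPM in the KELLY controls. The log2 difference was 5.32 (standard error 0.18, adjusted p = 1.29e-07), or 39.9-fold. NOTCH2, a receptor cleaved on contact with a neighbouring cell, was low in both lines. It had 25, 27 and 20 counts in SK-N-AS and 28, 21 and 38 in KELLY, and the groups overlapped. The log2 difference was -0.27 with a 95% interval of -1.01 to 0.47 (adjusted p = 0.494), so that differences of up to 1.01 log2 units toward KELLY and 0.47 toward SK-N-AS lay within the interval at this depth. Copies of the NOTCH2 gene can take reads from it, and the copy listed in the tables, NOTCH2NLA, had 0 to 2 counts per library. That count cannot show how many NOTCH2 reads were lost, because the handling of reads shared between copies is not given.

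The 2 structural genes were the most abundant in KELLY beside FOSL2. VIM, the filament protein of mesenchymal cells, was at 1336, 1446 and 1581 CPM in SK-N-AS and at 50.6, 40.5 and 47.3 CPM in KELLY, with a log2 difference of 4.96 (standard error 0.15, adjusted p = 8.83e-08), or 31.2-fold. The antisense gene VIM-AS1, which overlaps its start, had 3 to 11 counts in the KELLY controls and 11 to 21 in the SK-N-AS controls. FN1, fibronectin, was at 238, 225 and 231 CPM in SK-N-AS and at 68.0, 62.8 and 73.6 CPM in KELLY. Its log2 difference was 1.75 (standard error 0.13, adjusted p = 4.59e-06), or 3.36-fold.

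**Figure D2:**
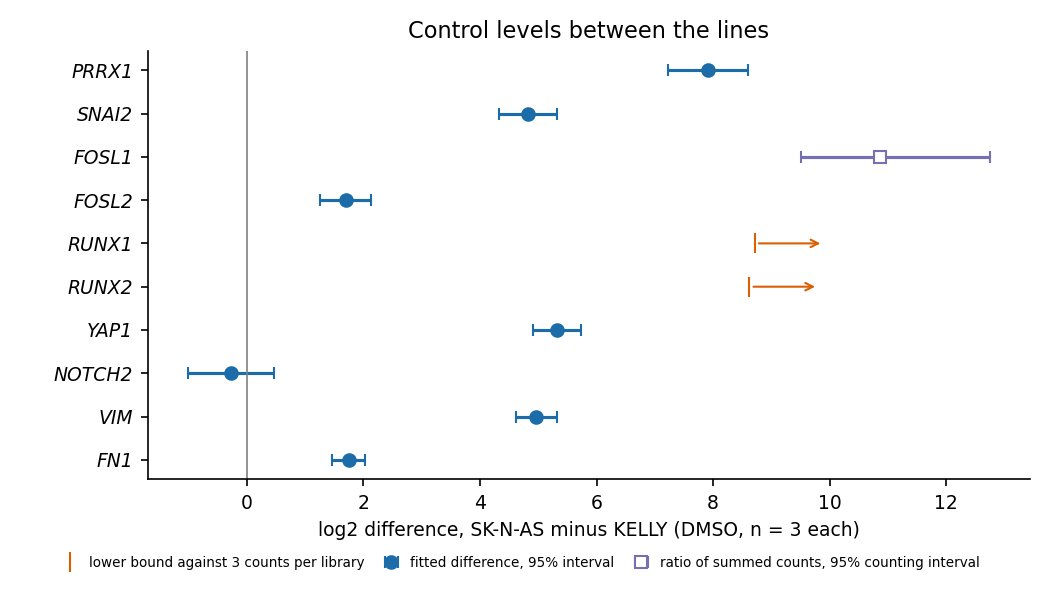
Log2 difference between the lines with DMSO, SK-N-AS minus KELLY, for the 10 genes (3 samples a line). Filled circles are fitted differences with 95% intervals, the open square is the ratio of summed counts of FOSL1 with its counting interval, and the arrows start at the lower bounds of RUNX1 and RUNX2; the interval of NOTCH2 alone spans 0.

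Levels can be set against each other between genes only per length. In TPM, which divides the counts by the length of all annotated exons of a gene and scales them to the same sum in each library, the order in the SK-N-AS controls was VIM at 1043 ± 77.8 (SD, n = 3), FOSL1 at 186 ± 27.4, PRRX1 at 143 ± 15.6, FOSL2 at 72.2 ± 10.9, YAP1 at 56.4 ± 3.00, FN1 at 49.9 ± 2.68, SNAI2 at 33.7 ± 3.34, RUNX2 at 20.4 ± 2.46, RUNX1 at 11.4 ± 0.763 and NOTCH2 at 0.203 ± 0.0337. No neighbours in that order overlapped in their 3 values. In the KELLY controls VIM led at 34.5 ± 4.72 TPM, before FOSL2 at 22.9 ± 4.56 and FN1 at 15.3 ± 1.41, and none of the other 7 exceeded 1.64 TPM in any library. YAP1 and SNAI2 were next and overlapped. The middle of both orders depends on the length used. With the length of the canonical transcript, chosen after seeing the data, PRRX1 moved before FOSL1 and FN1 before FOSL2 and YAP1 in SK-N-AS, and FN1 moved before FOSL2 and SNAI2 before YAP1 in KELLY.

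Lists of partners of these genes were counted in the same comparison of the lines, and each count is to be read against the 30.3% of all genes tested that were higher in SK-N-AS and the 30.9% that were lower. The lists too were chosen with earlier results of these data known, so that the counts describe them only. Among other regulators of mesenchymal cells, 8 of 12 genes tested (16 listed) were higher in SK-N-AS and 2 were lower, with a median log2 difference of 1.78. TWIST2, absent from the KELLY controls, was at least 8.31 log2 units higher, and TBX18 was 4.80 higher (adjusted p = 2.15e-07 by edgeR). SIX4 and ZEB1 went the other way, with log2 differences of -2.31 and -0.87. In the list of fibronectin receptors and matrix partners 15 of 17 were higher and 1 was lower, at a median of 2.40. TNC, tenascin, had no count in KELLY and was at least 9.98 log2 units higher, and THBS1, thrombospondin, was 9.23 higher. LOX, which crosslinks collagen, was lower, with a log2 difference of -1.15 (adjusted p = 0.0124).

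The Hippo list leaned the same way as YAP1. Of 21 genes of the pathway and its targets 15 were higher in SK-N-AS and 2 were lower, with a median log2 difference of 1.06. AXL, a receptor kinase switched on by YAP1, had no count in the KELLY controls and was at least 9.37 log2 units higher. WWTR1, which encodes the close relative TAZ, had 1 to 3 counts per KELLY library and 2325 to 2626 in SK-N-AS. The kinase gene LATS1 was lower in SK-N-AS (log2 difference -1.26, adjusted p = 6.45e-04), as was NF2 (-0.53, adjusted p = 0.0222 from edgeR). The call of NF2 was lost without SK-N-AS DMSO replicate 2 or 3 or KELLY DMSO replicate 2 or 3, where the adjusted p was 0.0540 to 0.0939, and with the replicate block (0.0784). Other genes of the kinase pathway, picked out here after their values were seen, did not all share this direction. Mean levels in the KELLY and SK-N-AS controls were 0.0406 and 3.75 CPM for LATS2, 15.1 and 30.6 CPM for STK3, and 126 and 218 CPM for MOB1A. They were 33.9 and 46.8 CPM for SAV1, 111 and 114 CPM for STK4, and 65.3 and 62.7 CPM for MOB1B.

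The Notch list was divided, with 11 of 26 genes higher and 10 lower in SK-N-AS and a median log2 difference of 0.10. The ligand gene JAG1 and the target gene HES1 were higher by 4.41 and 4.05 log2 units. The ligand gene JAG2 and MFNG, a glycosyltransferase that modifies the receptors, stood at log2 differences of -7.40 and -7.81. JAG2 had 6 to 10 counts in the SK-N-AS controls against 1113 to 1574 in KELLY, and JAG1 had 26 to 45 counts in KELLY against 742 to 851 in SK-N-AS. Of the other receptors, picked out here after their values were seen, NOTCH1 was higher by 1.94 (adjusted p = 0.00715) and NOTCH3 by 1.42 (adjusted p = 3.99e-04). NOTCH1 rests on few counts, 2 to 8 per library in the KELLY controls and 17 to 26 in the SK-N-AS controls. NOTCH4 had the lower mean in SK-N-AS, with 4 to 50 counts in the KELLY controls and 5 to 18 in the SK-N-AS controls.

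The AP-1 partners of the FOS-like proteins had 4 of 8 genes higher and 1 lower, at a median of 0.89, so that the share called was near the 61.3% of all genes. FOS and JUNB were higher by 1.91 and 1.43 log2 units, and ATF3, a stress-induced member, was lower (log2 difference -1.50, adjusted p = 2.35e-04). Of the RUNX partners 2 of 4 were higher and 2 lower. RUNX3, the third member of the family, had the opposite pattern to RUNX1 and RUNX2, with 156 to 311 counts in the KELLY controls and 6 to 14 in the SK-N-AS controls (log2 difference -4.85, adjusted p = 1.16e-05). RUNX1T1 was higher by 0.76, CBFA2T2 was lower with a log2 difference of -0.91, and CBFB was higher by 0.47 (adjusted p = 0.0378 from edgeR). The call of CBFB was lost without the same 4 libraries taken in turn, at adjusted p-values of 0.0888 to 0.125, and with the replicate block (0.0929).

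Other intermediate filament genes did not share the direction of VIM as a group. 4 of 13 were higher in SK-N-AS and 6 were lower, at a median log2 difference of -0.60. The simple keratins KRT18 and KRT8 had 0 to 4 and 0 to 6 counts in the KELLY controls and 3437 to 4962 and 1610 to 2502 in SK-N-AS. The neuronal filament genes NEFH and INA were lower in SK-N-AS, with log2 differences of -6.81 and -4.31. Adrenergic genes were lower in 16 of 17 cases, at a median of -1.98, led by DBH at -7.58 and CHGA at -7.54.

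**Figure D3:**
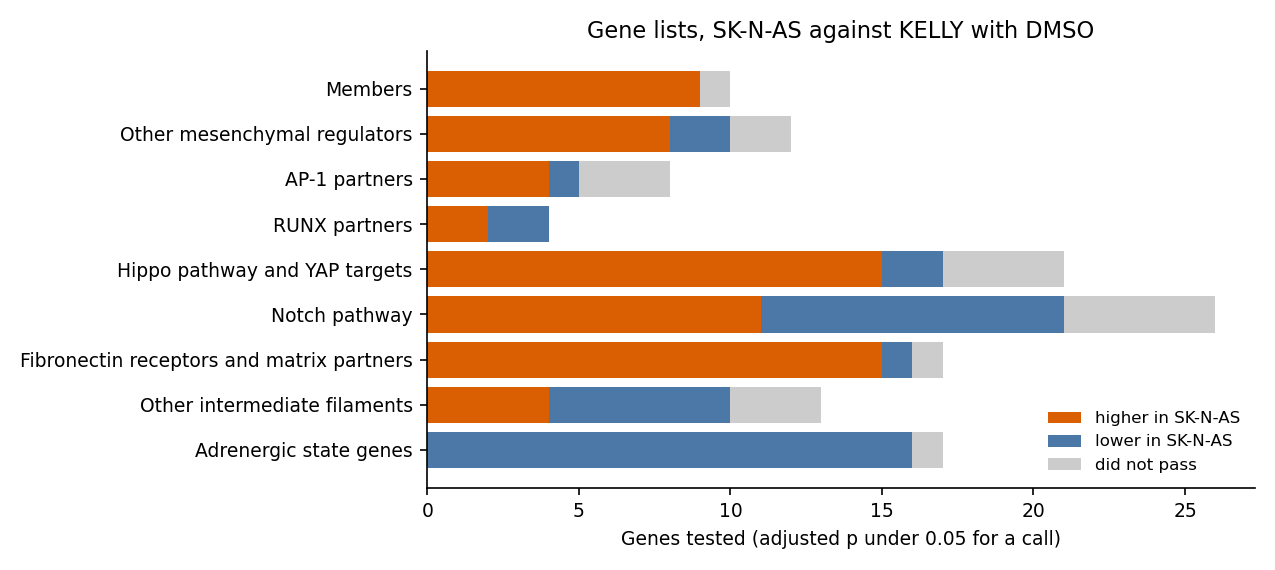
Number of genes tested in each list (bar length) that were higher in SK-N-AS, lower in SK-N-AS or did not pass, in the comparison of the lines with DMSO, where 61.3% of all genes tested passed. The upper bar holds the 10 genes described here, and the bottom bar the adrenergic genes, of which 16 of 17 were lower.

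Some markers of other cell types differed between the lines too. The summed level of 7 fibroblast markers was 75.1 to 121 CPM in the KELLY controls and 4547 to 5184 CPM in the SK-N-AS controls, and DCN and LUM were 10.05 and 9.96 log2 units higher. The list was not uniform, and 5 of the 6 tested were called. PDGFRB was at 84.9 CPM on average in the KELLY controls and at 108 CPM in the SK-N-AS controls. COL1A2 had 0 counts in the KELLY controls and 0 to 7 per library in the SK-N-AS controls. Of 6 Schwann cell markers the sum was 1.66 to 1.87 CPM in the KELLY controls and 1.01 to 1.47 CPM in the SK-N-AS controls, with S100B and CDH19 at 0. Among the 3 tested, 1 was called higher and 1 lower in SK-N-AS. Of 5 endothelial markers the sum was 3.46 to 4.51 CPM in the KELLY controls and 0.488 to 0.736 CPM in the SK-N-AS controls. Both of the 2 tested were called lower in SK-N-AS. In these bulk samples a change in the share of cells in a state and a change in the level per cell cannot be told apart.

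Erastin moved none of these genes past the threshold in KELLY. Of the 10, 7 had enough counts to be tested, and 0 of 7 had an adjusted p under 0.05, against 0.00615% of 16258 genes tested (1 gene). At the threshold of the study's methods, which asks for a change of 1.5-fold or more and an unadjusted p no higher than 0.05, 0 of 7 passed, against 2.03% of all genes. At an unadjusted p of at most 0.05 alone 1 passed, FN1, against 2.64%, and DESeq2 and limma-voom called none either. The 3 genes left untested were FOSL1, with 7, 0 and 0 counts in the Erastin libraries, and RUNX1 and RUNX2, with none. The median log2 fold change of the 7 was -0.11 and that of all genes tested was 0.01.

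FN1 was the 1 gene whose KELLY groups did not overlap, as in 8.54% of all genes tested. It was at 68.0, 62.8 and 73.6 CPM with DMSO and at 48.8, 54.6 and 51.8 CPM with Erastin. The log2 fold change was -0.39 (standard error 0.15, 95% interval -0.73 to -0.06, unadjusted p = 0.0277 from edgeR, adjusted p = 0.770). Over 17 alternative analyses it lay between -0.45 and -0.34 with an adjusted p of 0.248 or more. FOSL2 had the largest positive value, 0.38 (standard error 0.22), from 33.1, 52.3 and 42.2 CPM to 66.2, 46.0 and 53.3 CPM, and its groups overlapped. The interval of VIM ran from -0.52 to 0.48, and those of PRRX1 and NOTCH2, with few counts, were wider still, from -1.16 to 0.64 and from -1.13 to 0.94. The intervals of YAP1 and SNAI2 were -0.88 to 0.26 and -0.83 to 0.60. In KELLY, VIM was the 1 gene of the 7 whose interval stayed within a change of 1.5-fold in both directions.

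In SK-N-AS all 10 genes were tested and 0 of 10 had an adjusted p under 0.05 after Erastin, against 0.659% of 16095 genes (106 genes). At the threshold of the methods 0 of 10 passed, against 2.67%, and at an unadjusted p of at most 0.05 alone 1 of 10 passed, PRRX1, against 8.77%. DESeq2 and limma-voom called 0 of 10 as well. The median log2 fold change of the 10 was -0.08 and that of all genes -0.01.

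PRRX1 was lower in every Erastin library than in every DMSO library, at 254, 231 and 251 CPM against 279, 318 and 355 CPM. The log2 fold change was -0.36 (standard error 0.10, 95% interval -0.57 to -0.15, unadjusted p = 0.00275 and adjusted p = 0.178 from edgeR), or 0.779 of the control level, and did not pass. Groups that did not overlap made up 14.8% of all genes tested, 7.81% with Erastin the lower. Among the control libraries PRRX1 was lowest in replicate 1, which had the highest GC trend (0.77), and highest in replicate 3, which had the lowest (-0.75). With that trend removed from each library the log2 fold change was -0.37 (standard error 0.05) and the adjusted p was 1.63e-04, in a fit that called 1059 genes in all (6.58%). PRRX1 also passed with the replicate number as a block (adjusted p = 0.0135 from edgeR), with no filter (0.0236), without DMSO replicate 1 (0.0181) and without DMSO replicate 3 (0.0401). Over all 17 alternatives the log2 fold change of PRRX1 lay between -0.45 and -0.27 and the adjusted p between 9.16e-07 and 1.00. The summed level of the 7 fibroblast markers was lower without overlap in the same samples, at 4547 to 5184 CPM with DMSO and 4313 to 4409 CPM with Erastin. In the main fit 0 of the 6 tested were called. Under 7 of the 17 alternatives the count of called fibroblast markers rose above 0, to at most 4. With 1 replicate left out it was 0 to 1. DCN, a proteoglycan of the matrix that the naming rule for Erastin did not select, was at 140 ± 14.5 CPM (SD, n = 3) with DMSO and 108 ± 3.43 CPM with Erastin (adjusted p = 0.149 from edgeR). Of the 6 tested, 2 were lower without overlap and 1 had a positive log2 fold change. PDGFRB went the other way from DCN, at 108 CPM on average with DMSO and 119 CPM with Erastin. The part of these markers in the values of PRRX1 was not tested.

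The values of the FOS-like pair had opposite signs and neither passed. FOSL1 was at 106, 95.7 and 81.7 CPM with DMSO and at 80.5, 88.3 and 76.6 CPM with Erastin, a difference of -0.20 on the log2 scale (standard error 0.11, adjusted p = 0.654). FOSL2 was at 157, 139 and 120 CPM with DMSO and at 150, 175 and 152 CPM with Erastin, a difference of 0.20 on the log2 scale (standard error 0.11, adjusted p = 0.645). The groups of both genes overlapped. With the GC trend removed both passed, FOSL1 at -0.17 (adjusted p = 0.0290) and FOSL2 at 0.21 (adjusted p = 0.0330), and FOSL1 also passed without DMSO replicate 3 (adjusted p = 0.0367).

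The other 7 genes had log2 fold changes between -0.16 and 0.19 in SK-N-AS, and their groups overlapped. RUNX2 was highest, at 0.19 (standard error 0.10), from 44.2, 40.5 and 50.5 CPM to 52.3, 51.1 and 49.6 CPM. RUNX1 had a value of 0.07, SNAI2 of -0.09, YAP1 of -0.06, VIM of -0.11 and FN1 of 0.07, each with a standard error of at most 0.11. For FN1 the 95% interval was -0.09 to 0.23, and for VIM -0.28 to 0.06, so that a change of 1.5-fold lay outside the intervals of both. NOTCH2, with 16 to 32 counts per library, had an interval from -0.88 to 0.56.

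**Figure D4:**
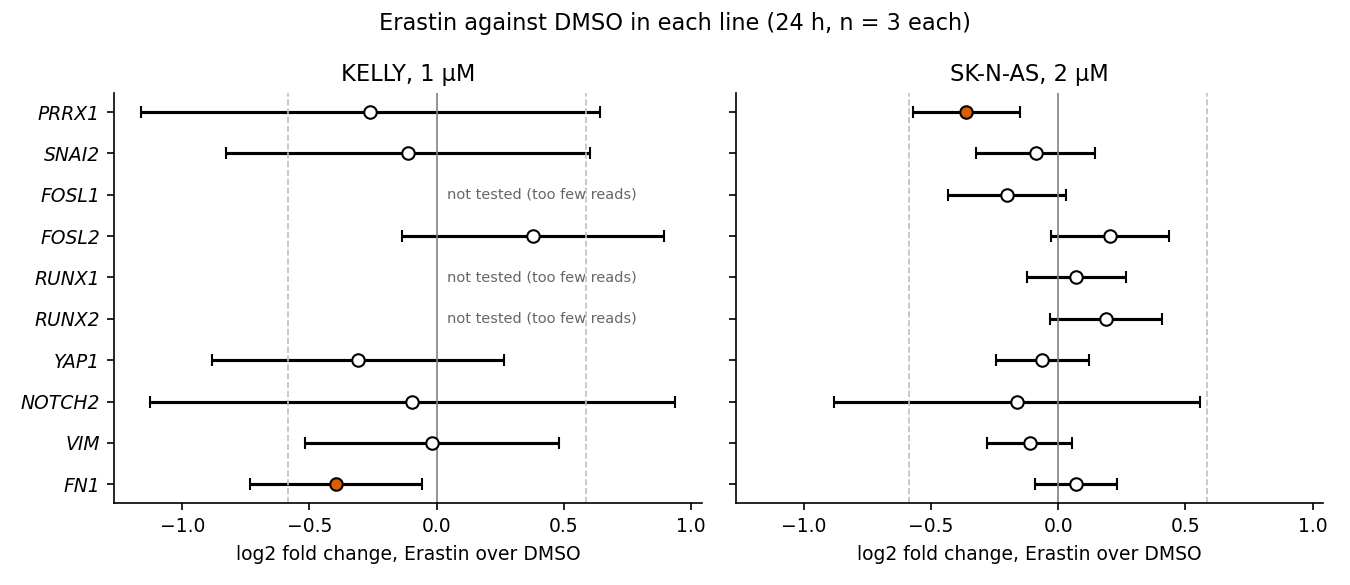
Log2 fold change of Erastin over DMSO in KELLY (left, 1 µM) and SK-N-AS (right, 2 µM) with 95% intervals, 3 samples a group; orange points mark genes whose groups did not overlap, and the dashed lines mark a change of 1.5-fold. FN1 in KELLY and PRRX1 in SK-N-AS are the orange points, and every interval but those 2 spans 0.

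Among the lists of partners, the AP-1 list in SK-N-AS was the one with called genes. In SK-N-AS 2 of 9 AP-1 partners tested were called, against 0.659% of all genes, and 4 were called without DMSO replicate 3. The 2 were JDP2 at 1.74 log2 units (standard error 0.13, adjusted p = 2.08e-05) and ATF3 at 1.07 (standard error 0.17, adjusted p = 0.00851). JDP2 represses AP-1 targets as a dimer with JUN proteins. It had 224 to 265 counts with DMSO and 726 to 1077 with Erastin, and ATF3 had 82 to 116 and 198 to 245. In KELLY the values were 1.09 for JDP2 (adjusted p = 0.770) and 1.02 for ATF3 (adjusted p = 0.342), with ATF3 at 266 to 305 counts with DMSO and 541 to 631 with Erastin. The interaction of treatment and line gave 0.65 for JDP2 (SK-N-AS minus KELLY, standard error 0.30, adjusted p = 0.811) and 0.04 for ATF3 (adjusted p = 0.986). ATF3 in KELLY passed with DESeq2, with the GC trend removed and in a fit of all 12 samples, at adjusted p-values of 1.87e-05, 0.00548 and 0.0288.

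In these fits no gene of the Hippo, Notch, RUNX, mesenchymal, filament, matrix or adrenergic lists was called in either line. In KELLY these counts stayed at 0 under all 17 alternatives. In SK-N-AS they did not, and with the replicate block and the GC correction together 7 genes were called in the Hippo list, 5 in the matrix list, 4 each in the mesenchymal and adrenergic lists, 2 each in the Notch and filament lists and 1 in the RUNX list. Without DMSO replicate 3 the counts were 3 in the adrenergic list, 2 each in the matrix and mesenchymal lists, 1 each in the Hippo and Notch lists and 0 in the others. The YAP1 target genes ANKRD1 and CTGF passed the threshold of the methods in SK-N-AS, at log2 fold changes of 1.01 (adjusted p = 0.292) and 0.89 (adjusted p = 0.437), from at most 24 counts per control library. The adrenergic genes INSM1 and TH stood at -0.65 and -0.73 there (adjusted p = 0.277 and 0.344). TH passed without DMSO replicate 3 (0.0134) and ANKRD1 with the block and the GC correction together (0.0413). In KELLY the mesenchymal regulator TBX18 stood at -0.77 and DBH at 0.79, both with an adjusted p of 0.770. The summed adrenergic level was 8326 to 14473 CPM with Erastin in KELLY and overlapped that of the controls. VIM-AS1 had 18 to 41 counts with Erastin in SK-N-AS, with a log2 fold change of 0.91 (adjusted p = 0.507) and overlapping groups.

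Whether Erastin acted differently on these genes in the lines was tested as the interaction of treatment and line over all 12 samples. 0 of the 10 genes passed, against 0.00548% of 18239 genes tested (1 gene), and values are given for the 7 that had enough counts to be tested in KELLY. FN1 had the largest difference, 0.46 log2 units toward SK-N-AS (standard error 0.14, 95% interval 0.16 to 0.75, unadjusted p = 0.00568, adjusted p = 0.811 from edgeR), with the values of -0.39 in KELLY and 0.07 in SK-N-AS. The difference of YAP1 was 0.24 and those of PRRX1, FOSL2, NOTCH2, SNAI2 and VIM lay between -0.18 and 0.01, each with an adjusted p of at least 0.811. DESeq2 and limma-voom called 0 of 7 as well. At an unadjusted p of at most 0.05 FN1 was the 1 of 7, against 4.25% of all genes tested.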

How the data were processed

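RNA-seq of KELLY and SK-N-AS cells, 3 DMSO and 3 Erastin samples a line, was analysed from the counts. According to the methods, paired-end reads were trimmed and aligned to GRCh38, and HTSeq counted them against GENCODE genes. The aligner's strand and multi-mapping settings are not given in the sources used here. The authors deposited raw counts per gene without normalization, in 1 table a line, with 58735 gene names in the same order, of which 1568 repeat a name. The depth is given with the results, and columns of the authors' own comparisons were not part of the tables.

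Each comparison was fitted on all genes with edgeR 4.0.16 (R 4.3.3), using the default low-count filter on the samples of the fit, TMM scaling, the quasi-likelihood test, and Benjamini-Hochberg adjustment over all genes tested. The main fits hold the groups compared and no block. Standard errors were taken as the absolute log2 fold change divided by the square root of F. CPM used TMM over all 12 samples. TPM used exon-union lengths of GENCODE release 44, to which 36194 names were matched by symbol and 850 by an older symbol. A fold against a group at 0 was computed against 3 counts per library. Named genes were the 10 genes, and from each list up to 2 higher and 2 lower in SK-N-AS with the largest change among those with an adjusted p under 0.05 and a mean of at least 100 counts in the higher group, or, for Erastin, up to 2 with the smallest p at the threshold of the methods. The genes and the lists of partners and markers, written from general knowledge, were chosen with earlier results of these data known. The other tools were DESeq2, version 1.42.0, and limma-voom, version 3.58.1, both run on all genes that passed the filter. The methods also used DESeq2, in another version and on protein-coding genes only. Other scalings (RLE, or library size), these tools and other filters (none, a mean of 10 counts or more, protein-coding genes) were tried. So were a block for the replicate number, a GC correction (a loess curve of span 0.5 and degree 2 through each library's log2 deviation from the mean, taken as an offset), both at once, a joint fit of the 12 samples, and fits without each replicate. The canonical transcript length was added after seeing the data. The scripts were tested on simulated data. Promoters came from RefSeq. FOSL1 and SNAI2 had none in the table used.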

Additional observations from a re-analysis of the deposited data

How the results depend on the processing

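In the comparison of the lines, the 10 genes kept their direction and their side of the threshold in all 170 values from 17 alternatives. After Erastin, 0 of the genes were called in KELLY under each of 17 alternatives. In SK-N-AS the count of called genes among the 10 rose from 0 to 1 with no filter and with the replicate block, and to 3 with the GC correction and with both together, and leaving out 1 replicate gave 0 to 2, with 1 without DMSO replicate 1 and 2 without DMSO replicate 3. PRRX1 was the gene called under no filter (adjusted p = 0.0236) and the replicate block (0.0135 from edgeR), joined by FOSL1 and FOSL2 under the GC correction. Each of 7 values reversed in KELLY, 1 in SK-N-AS and 18 in the interaction belonged to a gene that did not pass. For SNAI2 in KELLY they were 0.0298 with the GC correction and 0.0365 with block and correction. In the interaction they were 0.0165 for NOTCH2 with limma-voom, -0.0204 for SNAI2 with no filter, -0.127 and -0.123 for SNAI2 and 0.0226 and 0.0504 for VIM with the correction, without and with the block. With 1 replicate left out, log2 fold changes in KELLY ranged from -0.23 to 0.0359 for SNAI2, -0.17 to 0.16 for VIM and -0.52 to 0.23 for NOTCH2, and in SK-N-AS from -0.44 to 0.0201 for NOTCH2. Interaction values ranged from -0.40 to 0.35 for NOTCH2, -0.13 to 0.13 for SNAI2, -0.34 to 0.17 for PRRX1 and -0.29 to 0.0375 for VIM. Same-numbered samples did not clearly deviate together. The correlations between DMSO and Erastin were -0.49, -0.48 and -0.04 in KELLY and -0.01, 0.06 and 0.12 in SK-N-AS. The GC trends of same-numbered libraries also differed, at -0.84 with DMSO and 0.87 with Erastin for replicate 1 in KELLY. The correlations therefore cannot settle whether the numbers pair the samples. The replicate block alone changed the call of PRRX1 among the 10 genes, and of CBFB and NF2 among the partners named between the lines. After Erastin in SK-N-AS it called 1 gene each in the Notch, matrix and adrenergic lists. Over all genes, Erastin calls in KELLY numbered 1, against 0 with the block, 31 with DESeq2, 19 with no filter, 37 with the GC correction, 5 with both and 17 in the fit of all samples. In SK-N-AS they numbered 106, against 308, 223, 265, 1059, 1785 and 46, and 53 to 855 with 1 replicate left out (855 without DMSO replicate 3). The causes were not tested. Depth limits NOTCH2 in both lines and PRRX1, SNAI2 and FOSL1 in KELLY. No scaling moved the median of all genes by over 0.1 log2 units.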

Other observations

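PTPRC, which encodes CD45, the surface phosphatase that marks blood cells, had the largest difference between the lines among the markers of other cell types that were tested. It had 13241 to 16496 counts in the SK-N-AS controls and 12835 to 13787 with Erastin, and no count in any KELLY library. It was at least 12.22 log2 units higher in the SK-N-AS controls. CD3E, MS4A1 and LYZ, markers of T cells, B cells and myeloid cells, were at 0 in all 12 libraries. The other myeloid markers listed were not all at 0. CD14 had 7 to 15 counts per library in the SK-N-AS controls and 0 to 8 in the KELLY controls. CD68 had 1 to 3 in the SK-N-AS controls and 0 in the KELLY controls. The haemoglobin genes HBA2 and HBB had up to 178 and 208 counts in a KELLY control library and none in the SK-N-AS controls. Their medians over the KELLY controls were 1 and 2 counts. With Erastin they had up to 37 and 91 counts in a KELLY library and up to 21 and 40 in an SK-N-AS library. The summed level of the 10 blood cell markers was 0.122 to 15.4 CPM in the KELLY controls and 488 to 620 CPM in the SK-N-AS controls, of which PTPRC made up 547 ± 67.3 CPM on average (SD, n = 3).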
